A study of Danio rerio with 49 samples.

Results

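The genes described are the lens crystallins of the zebrafish: every gene whose name starts with cryaa, cryab, cryba, crybb, crygm, crygn, crygs or crygd, with names starting crybg left out. The rule found 68 gene identifiers of 37241, and 57 of them had values in the count tables, against 32520 identifiers with values in all. These 57 were 3 alpha, 13 beta and 41 gamma crystallins. The gamma class held 21 genes named crygm2d, 11 other gammaM genes, 3 gammaMX genes, 2 gammaN genes and 4 gammaS genes. The other 11 identifiers had no value in any library, and 10 of them carried a name that an identifier with values also carried.

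Crystallins are the proteins that fill the fibre cells of the eye lens at very high concentration and give it its refractive power. The alpha crystallins belong to the small heat-shock proteins and act as chaperones, whereas the beta and gamma crystallins share a fold built of Greek-key motifs and have mainly a structural role. Beta crystallins form dimers and larger assemblies, and gamma crystallins are mostly monomers. The gammaM crystallins, rich in methionine, are typical of the hard lenses of fishes. Fibre cells first express crystallins as they elongate, and the fish lens goes on adding fibres through larval life.

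The study sequenced poly(A) RNA of wildtype zebrafish and of MZrlig1 fish, in which rlig1, a gene for an RNA ligase, is mutant both in the mother and in the embryo itself. Whole embryos and larvae kept in the dark gave, for each genotype, 4 libraries of 4-cell embryos, 2 of sphere embryos, and 3 each at shield, at bud, at 1 day post fertilization (dpf) and at 5 dpf. A separate set of heads at 5 dpf came from larvae under a light/dark cycle that had been sorted by a visual motion assay into good and bad responders: wildtype good (4 libraries), wildtype bad (3), MZrlig1 good (2) and MZrlig1 bad (4). Each library was a pool of 10 animals up to the shield stage and of 8 animals from the bud stage on, heads included, so animals within a pool were not resolved. The 49 libraries held 12158453 to 18355308 counts. Counts of rlig1 itself ran from 19 to 1084 over the 25 wildtype and from 0 to 4 over the 24 MZrlig1 libraries, which is the order the labels give.

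Some libraries stood apart. The MZrlig1 1 dpf library a had counts for 7815 genes, whereas the other 48 libraries had counts for at least 16453. Crystallin results at 1 dpf are given with and without it. At stages before 1 dpf, wildtype shield c, wildtype bud a and MZrlig1 bud b held far more crystallin counts than their replicates. Among heads, MZrlig1 good responder library 3 had a gammaM2d share unlike the others. In these pools of whole animals or heads, fewer lens cells and less crystallin RNA per lens cell cannot be told apart.

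All 3 classes were far lower at 1 dpf than at 5 dpf, and beta crystallins made up most of what was there at 1 dpf. The 13 beta genes together had 249.7, 263.4 and 224.3 CPM (counts divided by the library total, scaled to 1000000) in the wildtype 1 dpf libraries. The 21 crygm2d genes together had 7.21, 7.05 and 20.0 CPM in the same libraries, and the 3 alpha genes together had 0.79, 0.19 and 0.81 CPM, from 12, 3 and 10 counts. The gamma to beta ratio of summed CPM was thus 0.157 ± 0.018 (SD, n = 3) in wildtype at 1 dpf.

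At 5 dpf the ratio was 1.05 ± 0.005 (SD, n = 3), with no overlap between the ages. Wildtype 5 dpf libraries held 8153, 8189 and 9241 CPM of beta crystallin. They held 7201, 7198 and 8274 CPM of gammaM2d, and 68.2, 67.8 and 77.6 CPM of alpha crystallin. No 5 dpf value came near a 1 dpf value in any class. The mean summed level was 34.7-fold higher at 5 dpf for beta, 662-fold higher for gammaM2d, 51.7-fold higher for the other gamma genes and 119-fold higher for alpha. The wildtype gammaM2d mean was 11.4 CPM at 1 dpf, near the 10.4 CPM of 4-cell embryos. Its fold therefore rests on a 1 dpf level not told apart from counts before any lens. The wildtype beta mean was 245.8 CPM at 1 dpf and 7.71 CPM in 4-cell embryos. All crystallins together went from 0.0285% ± 0.0018 (SD, n = 3) of wildtype counts at 1 dpf to 1.76% ± 0.13 (SD, n = 3) at 5 dpf.

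**Figure D1:**
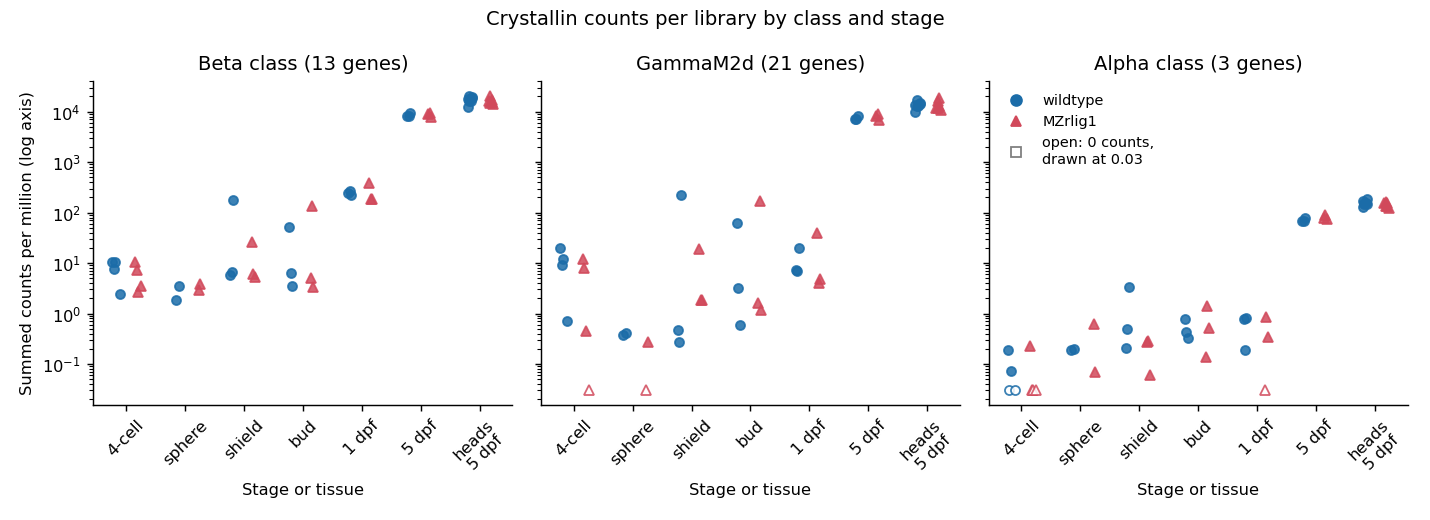
Summed CPM (log axis) of the beta, gammaM2d and alpha crystallin genes in every library, by stage or tissue; circles are wildtype and triangles MZrlig1 libraries, and open symbols are libraries with 0 counts, drawn at 0.03. Both genotypes rose by orders of magnitude between 1 and 5 dpf, and wildtype shield c, wildtype bud a and MZrlig1 bud b lie far above their replicates.

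Tested gene by gene, 44 crystallins passed the filter on low counts in wildtype, and 44 of 44 were called between 1 and 5 dpf (edgeR's quasi-likelihood test, Benjamini-Hochberg adjusted p under 0.05 over all genes). The background was high, as 75.3% of all 20624 genes tested were called. In direction, 43 of the 44 were higher at 5 dpf, against 39.0% of all genes, and 1 was lower, against 36.3%. The median log2 fold change was 8.10 over the tested crystallins, or 7.19 with 5 genes that had no counts at 1 dpf at their lower bounds, and 0.02 over all genes. A member that had to be high at 5 dpf to pass the filter could hardly be called otherwise, and its fold change was bound to be large. The count and the median are therefore descriptions only, and the same limit holds for those in MZrlig1 below. The class sums given above rest on no filter.

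The 12 tested beta genes had a median log2 fold change of 5.15, whereas the 21 crygm2d genes had 9.76, with the lowest crygm2d gene at 7.16. Among the 30 tested gamma genes, 5 (crygm2c, crygm2e, crygm2f, crygm5 and crygmxl1) had 0 counts in all 3 wildtype 1 dpf libraries. Some gamma genes that were not tested, such as crygm7, had no counts there either. Set against a floor of 3 counts over the group, crygm2f was at least 150-fold higher at 5 dpf and crygm5 at least 103-fold higher. With these 5 genes at their lower bounds, the median over the 30 tested gamma genes was 9.39.

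Among genes with counts at 1 dpf, the steepest rises in wildtype were those of crygm2d9 and crygm2d2. The gene crygm2d9 had 0, 0 and 0.487 CPM at 1 dpf and 347.7, 324.4 and 388.2 CPM at 5 dpf in wildtype. Its log2 fold change was 11.19 ± 0.40 (SE, adjusted p = 2.82e-10, edgeR). For crygm2d2 it was 10.93 ± 0.44 (SE, adjusted p = 3.11e-09, edgeR). With so few counts at 1 dpf, both genes passed the filter on low counts through their 5 dpf level. Their fold changes and p-values are therefore descriptions only, as are those of any member named below that passed in this way. Both lie in the crygm2d family, whose copies are near-identical paralogues, so how the authors' counting shared reads among them is uncertain for every single copy.

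Among the beta genes, CRYBB1, a basic beta crystallin and the most abundant crystallin per length, was already at 55.9, 56.4 and 41.3 CPM in wildtype at 1 dpf. It reached 1674, 1650 and 1915 CPM at 5 dpf (log2 fold change 5.07 ± 0.20 SE, adjusted p = 4.75e-11, edgeR). The acidic beta crystallins cryba1l1 and cryba1b rose in step, by 4.73 ± 0.16 and 5.28 ± 0.16 on the log2 scale (SE, adjusted p = 1.71e-11 and 5.94e-12, edgeR). One beta gene went the other way: CRYBB3 had 0.927, 1.62 and 0.731 CPM at 1 dpf and 0.583, 0.584 and 0.305 CPM at 5 dpf. Its log2 fold change was -1.18 ± 0.49 (SE, adjusted p = 0.042, edgeR), a call on few counts that was lost under some alternatives.

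Of the alpha genes, CRYAA, the lens chaperone, rose from 0.662, 0.0646 and 0.569 CPM to 66.9, 66.6 and 76.8 CPM in wildtype (log2 fold change 7.33 ± 0.29 SE, adjusted p = 1.07e-10, edgeR). CRYAB, a chaperone found in many tissues besides the lens, is present as a pair of identifiers. ENSDARG00000101380 stayed low, at 0.132, 0.129 and 0.0812 CPM at 1 dpf and 1.31, 1.17 and 0.763 CPM at 5 dpf (log2 fold change 3.10 ± 0.57 SE, adjusted p = 0.000217, edgeR). The other CRYAB identifier, ENSDARG00000042621, had 0 counts in the wildtype 5 dpf libraries and was not tested. At 5 dpf alpha crystallin RNA was therefore almost all CRYAA. At 1 dpf, on few counts, it was not in every library: CRYAA gave 0.0646 of 0.19 CPM in wildtype library b.

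The MZrlig1 embryos showed the same course. Their beta sum was 389.8, 184.1 and 185.2 CPM in libraries a, b and c at 1 dpf and 8890, 9466 and 7797 CPM at 5 dpf. Their gammaM2d sum was 39.2, 4.12 and 4.89 CPM at 1 dpf and 8301, 9041 and 6906 CPM at 5 dpf. Library a, the one with few detected genes, was the high one in both. With all libraries, 30 of 44 tested crystallins were called between 1 and 5 dpf, all higher, against 8.93% of all genes called and 7.59% called higher. Without 1 dpf library a, 43 of 44 were called, all higher, against 69.0% of all genes called and 36.7% called higher. Leaving out any other 1 dpf or 5 dpf MZrlig1 library, with library a kept, left 0 of the crystallins called by edgeR, although with all libraries 43 had an unadjusted p under 0.05 (24.6% of all genes did) and 43 were called by DESeq2's Wald test.

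In MZrlig1, crygm2d11 and crygm2d15 had 0 counts in all 3 libraries at 1 dpf. They had 12700 and 12510 counts over the 3 libraries at 5 dpf. Against a floor of 3 counts over the group, 1 dpf library a included, they were at least 4272-fold and at least 4208-fold higher. The bounds without library a are lower and are not given. How reads were shared among the near-identical crygm2d copies is uncertain, and so is a count of 0 for a single copy. With such genes at their bounds, the median log2 fold change was 5.24 for beta and 10.33 for gammaM2d genes, and without 1 dpf library a it was 5.59 and 11.46. Over all 44 tested crystallins the median at the bounds was 6.90 with library a and 8.00 without it. The gammaM2d median was above the beta median both ways, as in wildtype.

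Per length, beta and gammaM2d genes reached like levels at 5 dpf. In the authors' FPKM, which scale fragments by gene length and library size, CRYBB1 was highest in wildtype with 2676 ± 224 (SD, n = 3) and ranked 60 among all genes. It was followed in the beta class by cryba1l1 (1477 ± 111 FPKM, SD, n = 3) and cryba1b (1197 ± 102 FPKM, SD, n = 3). Within the class 8 of 13 genes exceeded 100 FPKM and the other 5 lay at or below 22.6 FPKM.

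The 21 crygm2d genes were more even: their mean FPKM ran from 87.7 for crygm2d6 to 1722 for crygm2d13 with a median of 698, and 18 of 21 lay within 2-fold of that median. How the authors' counting shared reads among these near-identical copies is uncertain, and so are their evenness, order and level. The highest 3 were crygm2d13, crygm2d8 (1668 ± 100 FPKM, SD, n = 3) and crygm2d18 (1201 ± 93.9 FPKM, SD, n = 3). CRYGN ENSDARG00000030411, a gammaN crystallin, stood beside them with 1083 ± 56.7 FPKM (SD, n = 3). The other 11 gammaM genes reached at most 34.6 FPKM, and the 4 gammaS genes at most 0.428 FPKM, so that gammaS crystallins were close to undetected. CRYAA had 62.0 ± 5.14 FPKM (SD, n = 3), far below the leading beta and gammaM2d genes.

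**Figure D2:**
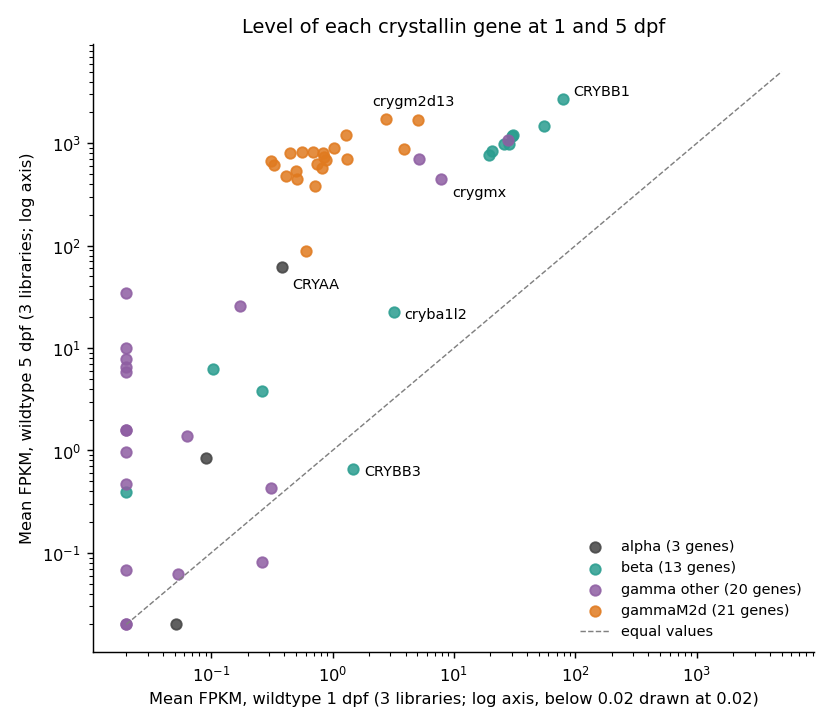
Mean FPKM of each of the 57 crystallin genes in wildtype at 1 dpf and at 5 dpf (3 libraries each, log axes, values below 0.02 drawn at 0.02), with the line of equal values. The beta genes with high values at 5 dpf already had 19.4 to 78.45 FPKM at 1 dpf, whereas crygm2d genes of similar 5 dpf level had at most 5.05 FPKM at 1 dpf.

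In RefSeq's annotation (assembly GRCz12tu, used for names and order only), 48 of the crystallins with values were found by name. A run of 34 neighbouring crystallin genes held all 21 crygm2d genes together with crygm7, crygm5, crygmxl1 and a pair of gammaS genes. Several beta genes lay in pairs, such as crybb1 beside cryba4 and crybb1l1 beside cryba1l1, and so did the gamma genes crygmx and crygmxl2. The genes with low levels were found in this run too: crygm7 had 1.59 FPKM and crygmxl1 had 5.90 FPKM in wildtype at 5 dpf, in the same run as crygm2d13 with 1722 FPKM.

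The other lens genes moved with the crystallins in part. Of 30 lens genes outside the crystallins, 29 were tested in wildtype and 25 changed between 1 and 5 dpf, 19 of them upward, with a median log2 fold change of 2.21, where 75.3% of all genes were called and 39.0% called higher. The 3 with the smallest p rose: BFSP2, which encodes a beaded-filament protein, by 8.43 ± 0.23, the water channel MIP ENSDARG00000013963 by 7.30 ± 0.22 and the membrane protein LIM2 ENSDARG00000015445 by 4.47 ± 0.15 on the log2 scale (SE, adjusted p = 3.25e-12, 5.94e-12 and 1.1e-11, edgeR). Among those that fell were tdrd7a, foxe3, pitx3, and 1 copy each of SOX1 and SIX3, of which foxe3, pitx3, SOX1 and SIX3 encode transcription factors of early lens or eye formation. In MZrlig1, 9 of 30 were called with all libraries, against 8.93% of all genes called and 7.59% called higher. LGSN, GRIFIN and MIP ENSDARG00000013963 ranked first. This fit includes 1 dpf library a, without which 69.0% of all genes were called, and the count of lens genes without it is not given. The counts of the genotypes are therefore not comparable.

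Genes of other tissues rose over the same interval in these whole animals, to be read against the same 39.0% of all genes called higher and 36.3% called lower. All 22 photoreceptor genes rose in wildtype, with a median log2 fold change of 7.52, and 9 of 11 muscle genes, 9 of 11 liver and gut genes, 9 of 12 brain genes and 7 of 10 other retina genes rose. The mean photoreceptor sum in wildtype was 21.55 CPM at 1 dpf and 9246 CPM at 5 dpf. Any gene here, or among the other lens genes, that passed the filter through its 5 dpf level could hardly be called otherwise. For such genes the counts, fold changes and medians are descriptions only. Of 8 small heat-shock genes tested, the wider family of the alpha crystallins, 3 rose and 4 fell. Of 5 genes listed as enzyme crystallins or their relatives, 2 rose, CRYZ by 1.03 and LGSN by 9.97 on the log2 scale. LGSN is also among the other lens genes. For the small heat-shock genes and for this list, the counts of genes that rose are shares near that background.

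Heads held a larger crystallin share than whole larvae. Over 13 head libraries crystallins took 2.48% to 4.20% of counts, and over 6 whole-larva libraries at 5 dpf 1.61% to 2.03%. The mean level in wildtype heads relative to wildtype whole larvae was 2.05-fold for beta, 1.80-fold for gammaM2d, 2.41-fold for the other gamma genes and 2.19-fold for alpha. In wildtype 39 of 47 tested crystallins were higher in heads and none lower (edgeR), against 28.2% of all genes called and 14.9% called higher; without wildtype 5 dpf library b the count was 25. In MZrlig1 16 of 45 were higher and none lower, against 16.7% of all genes called and 7.74% called higher; the count was 8 without MZrlig1 5 dpf library a, 4 without library c, and 28 by DESeq2. The tissue, the light regime and the separate deposited tables all differ here and cannot be told apart.

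By class, 10 of 11 beta, 21 of 21 crygm2d and both gammaN genes were called in wildtype heads, but 3 of 8 other gammaM genes. The largest rise among beta genes was that of CRYBA1, from 4.37, 3.90 and 3.51 CPM in wildtype whole larvae to a range of 11.3 to 20.4 CPM in wildtype heads (log2 fold change 2.03 ± 0.22 SE, adjusted p = 8.17e-05, edgeR). CRYBA4 followed with 1.31 ± 0.20 (SE, adjusted p = 0.000698, edgeR). In contrast, crybb1l1 differed by 0.08 ± 0.15 on the log2 scale between heads and whole larvae in wildtype (SE, adjusted p = 0.729, edgeR), the lowest value of the tested members.

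CRYAA was higher in heads in both genotypes, by 1.07 ± 0.13 in wildtype and 0.75 ± 0.15 in MZrlig1 on the log2 scale (SE, adjusted p = 0.000145 and 0.00469, edgeR). In MZrlig1 the largest rises were those of crygm3 (2.27 ± 0.55 SE, adjusted p = 0.014, edgeR) and crygm2f (1.30 ± 0.30 SE, adjusted p = 0.0117, edgeR). The genes crygm3 and crygm2f were both low, with crygm3 at 0.0661 to 0.376 CPM in MZrlig1 whole larvae. So low there, crygm3 passed the filter on low counts through its level in heads. Its call and its large fold change are therefore descriptions only. The same limit holds for any other member that passed in this way.

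Other lens genes rose in heads as well, 17 of 29 in wildtype, against 14.9% of all genes called higher. Among them were MIP ENSDARG00000037285 at 1.13 ± 0.15 and LGSN at 0.95 ± 0.14 (log2 fold change, SE, adjusted p = 0.000315 and 0.000611, edgeR). MAFA, a transcription factor gene, was lower in heads at -0.85 ± 0.12 (log2 fold change, SE, adjusted p = 0.000453, edgeR). As a check of the dissection, all 11 muscle genes were lower in heads in both genotypes. Of all genes 13.3% were called lower in wildtype and 8.99% in MZrlig1. The summed level of the muscle genes in heads still ran to 22957 CPM in 1 wildtype library. In wildtype 12 of 22 photoreceptor genes and 7 of 12 brain genes were higher in heads, against the same 14.9% of all genes.

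Wildtype heads placed 4 crystallins among the top 50 genes by FPKM and 8 among the top 100, whereas wildtype whole larvae at 5 dpf placed 1 among the top 100. CRYBB1 reached 6025 ± 805 FPKM (SD, n = 7) in wildtype heads, rank 9 among all genes.

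At 1 dpf, no crystallin was called between genotypes: 0 of 16 tested by edgeR, 0 with an unadjusted p under 0.05, and 0 by DESeq2. The background over all 18261 genes was 0.00% called and 0.674% with such an unadjusted p. The values rested on MZrlig1 library a, whose counts lowered the median of all genes to -0.41 (log2). CRYBB3 and CRYBA4 show it: CRYBA4 had 21.9, 22.4 and 15.6 CPM in wildtype and 175.3, 17.9 and 15.5 CPM in MZrlig1. The log2 fold change of CRYBA4 was 3.14 ± 1.45 (SE, adjusted p = 0.968, edgeR) with library a and -0.25 ± 0.21 (SE, adjusted p = 0.919, edgeR) without it. CRYBB3 likewise went from 4.03 ± 1.85 to -0.01 ± 0.48 (SE, adjusted p = 0.968 and 0.999, edgeR).

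Without library a, all 17 tested crystallins had a log2 fold change below 0 in MZrlig1 at 1 dpf, with a median of -0.45. Of all genes 50.2% were below 0. The 17 genes share a tissue and the same pools, so they are not independent of each other. The part of a difference in stage or lens amount between pools was not tested. Of the 17, 1 was called (1.03% of all genes were called): crybb1l1, a basic beta crystallin. It had 45.7, 47.3 and 52.1 CPM in wildtype and 27.8 and 29.3 CPM in MZrlig1 libraries b and c, and 0 in library a. The log2 fold change was -0.74 ± 0.13 (SE, adjusted p = 0.0264, edgeR) without library a, and -1.32 ± 1.53 (SE, adjusted p = 0.968, edgeR) with it. The gammaM2d sum was 4.12 and 4.89 CPM in MZrlig1 libraries b and c, from 57 and 71 counts. All 3 wildtype values, 7.21, 7.05 and 20.0 CPM from 109, 109 and 246 counts, lay above these, and the difference was not tested. Over the 8 libraries of 4-cell embryos the same sum ran from 0 to 19.8 CPM, so sums this low also occurred before any lens.

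At 5 dpf, whole MZrlig1 and wildtype larvae had overlapping crystallin levels in every class. The 3 MZrlig1 libraries held 78.1, 89.4 and 75.8 CPM of alpha crystallin, the lowest of which lay below the highest wildtype value, and the beta, gammaM2d and other gamma sums of MZrlig1 reached both below and above those of wildtype. The mean MZrlig1 level relative to wildtype was 1.14 for alpha, 1.02 for beta, 1.07 for gammaM2d and 1.11 for the other gamma genes. Of 43 tested crystallins 0 were called by edgeR and 4 had an unadjusted p under 0.05, against 1.02% and 10.2% of all genes; DESeq2 called 1. The log2 fold change was above 0 for 39 of 43, with a median of 0.18, whereas 49.0% of all genes were above 0, with a median of -0.01. The 43 genes share a tissue and the same pools, and the crygm2d copies may share reads, so they are not independent of each other.

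The beta gene crybb1l1 stood lowest at 5 dpf. It had 1618, 1577 and 1840 CPM in wildtype and 1173, 1196 and 1108 CPM in MZrlig1, so the groups did not overlap (log2 fold change -0.47 ± 0.14 SE, adjusted p = 0.264, edgeR). DESeq2 called it (adjusted p = 0.0285), and so did edgeR without MZrlig1 5 dpf library b (adjusted p = 0.0296). CRYBA1 had the smallest p, with 4.37, 3.90 and 3.51 CPM in wildtype against 5.48, 6.75 and 6.03 CPM in MZrlig1 (log2 fold change 0.70 ± 0.21 SE, adjusted p = 0.262, edgeR). CRYAA had 76.5, 88.0 and 74.7 CPM in MZrlig1 (log2 fold change 0.26 ± 0.14 SE, adjusted p = 0.566, edgeR). Of the 29 other lens, 22 photoreceptor and 11 muscle genes tested, 0 were called between genotypes at 5 dpf by edgeR, while 3, 2 and 1 of them were under 0.05 before adjustment. Of all genes 1.02% were called and 10.2% were under 0.05 before adjustment. Of 11 liver and gut genes 1 was called, the transferrin gene tfa (log2 fold change 0.85 ± 0.14 SE, adjusted p = 0.0275, edgeR). Values above 0 were also found for 10 of 11 liver and gut, 10 of 12 brain, 9 of 10 other retina, 7 of 11 muscle, 17 of 29 other lens and 9 of 22 photoreceptor genes. The part of such shifts in the 39 of 43 crystallins above 0 was not tested.

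**Figure D3:**
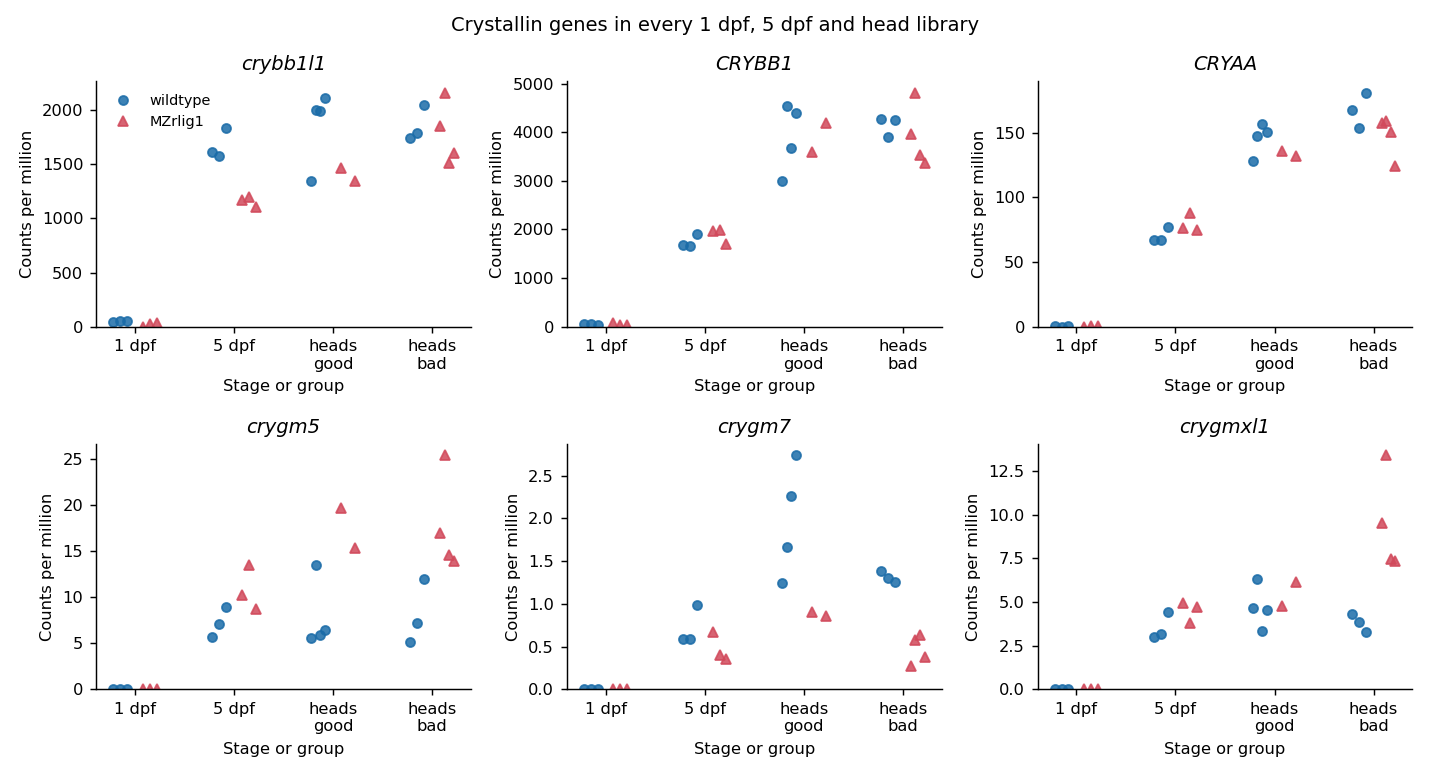
CPM of 6 crystallin genes in every 1 dpf, 5 dpf and head library; circles are wildtype and triangles MZrlig1 libraries, with heads split into good and bad responders. For crybb1l1 the 5 dpf groups do not overlap but the head groups do, and crygm5 and crygm7 keep the genotypes apart within each behaviour group of heads.

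In heads, class sums overlapped in each pair of groups compared, by genotype or by behaviour. Alpha crystallin ran from 125.6 to 182.5 CPM, beta crystallin from 12590 to 20672 CPM and gammaM2d from 9661 to 19030 CPM over the 13 libraries. Beta crystallin had a mean of 17264 ± 3576 CPM (SD, n = 4) in wildtype good responders, 17686 ± 1557 (SD, n = 3) in wildtype bad, 15871 ± 1362 (SD, n = 2) in MZrlig1 good and 16718 ± 2509 (SD, n = 4) in MZrlig1 bad responders. The spread within wildtype good responders alone, 12590 to 20672 CPM, covered all the other beta values.

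**Figure D4:**
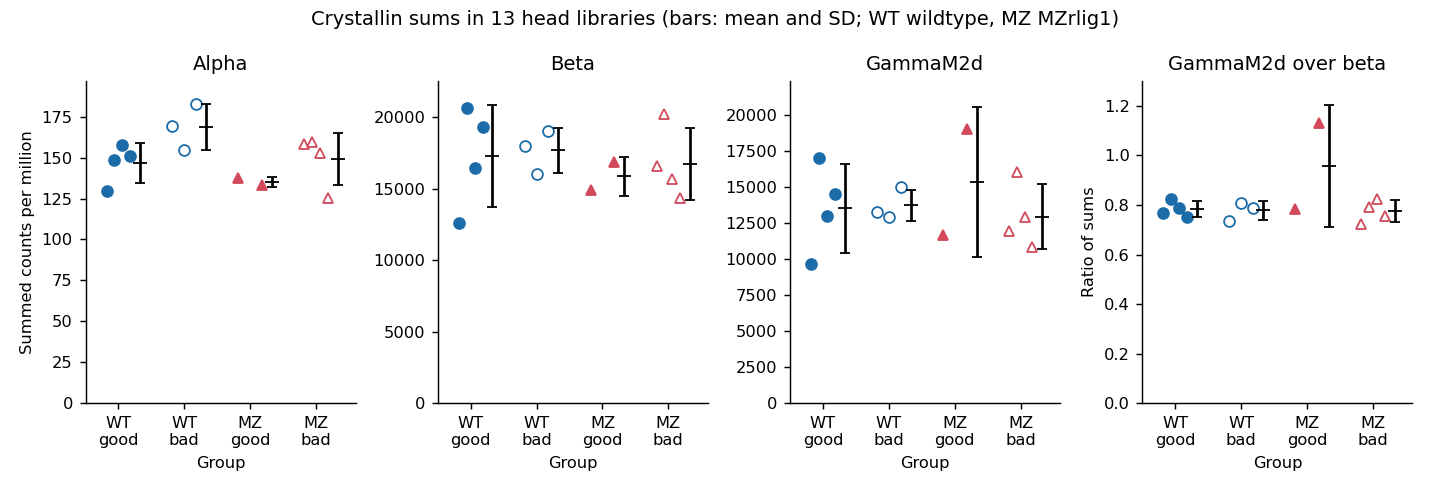
Summed CPM of alpha, beta and gammaM2d crystallins and the gammaM2d to beta ratio in 13 head libraries by genotype (circles wildtype, triangles MZrlig1) and behaviour (filled good, open bad responders), with mean and SD. The groups compared overlap in each panel, and 1 MZrlig1 good responder library has a ratio of 1.13 whereas the other 12 lie between 0.724 and 0.825.

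Between genotypes, 0 of 48 tested crystallins were called among good responders (3 with an unadjusted p under 0.05, 0 by DESeq2), against 0.708% of all genes called and 10.2% with such a p. Among bad responders 0 of 48 were called by edgeR (6 with an unadjusted p under 0.05, 1 by DESeq2), against 0.983% of all genes called and 6.88% with such a p. With both behaviour groups averaged, 2 of 48 were called by edgeR, with 6 at an unadjusted p under 0.05, against 2.73% and 11.5% of all genes, a share near the background. Of the 2, 1 was higher and 1 lower, against 1.35% and 1.38% of all genes. The calls were not stable: with 1 of the 13 libraries left out, crygm7 was still called when that was wildtype good 1 or 2 or MZrlig1 bad 2 or 3, crygm5 when it was wildtype good 2 or wildtype bad 4, and neither when it was any of the others. Without MZrlig1 good 3, the library that stood apart, the 1 call was crygm2d6.

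The lower one was crygm7, a gammaM crystallin of low level. It had 1.25, 1.66, 2.26 and 2.74 CPM in wildtype good and 1.39, 1.30 and 1.26 CPM in wildtype bad responders. In MZrlig1 it had 0.905 and 0.855 CPM in good and 0.269, 0.574, 0.634 and 0.380 CPM in bad responders, so all MZrlig1 heads lay below all wildtype heads. These values rest on 4 to 36 counts a library. The log2 fold change was -1.27 ± 0.30 (SE, adjusted p = 0.0359, edgeR) averaged over behaviour, -1.04 ± 0.44 in good responders (SE, adjusted p = 0.435, edgeR) and -1.51 ± 0.40 in bad responders (SE, adjusted p = 0.129, edgeR).

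The higher one was crygm5, another gammaM gene. Wildtype heads had 5.53, 13.5, 5.89 and 6.46 CPM in good and 5.13, 7.25 and 12.03 CPM in bad responders. MZrlig1 heads had 19.7 and 15.3 CPM in good and 17.0, 25.4, 14.6 and 14.0 CPM in bad responders. The highest wildtype library, at 13.5 CPM, lay just under the lowest MZrlig1 library, at 14.0 CPM. The log2 fold change was 1.18 ± 0.29 (SE, adjusted p = 0.0455, edgeR) averaged over behaviour, 1.22 ± 0.42 (SE, adjusted p = 0.295, edgeR) in good and 1.13 ± 0.39 (SE, adjusted p = 0.397, edgeR) in bad responders. In whole larvae at 5 dpf crygm5 had 5.68, 7.08 and 9.001 CPM in wildtype and 10.2, 13.6 and 8.77 CPM in MZrlig1, which overlapped (log2 fold change 0.66 ± 0.25 SE, adjusted p = 0.405, edgeR).

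The gene crygm2d6, named after its values were seen, had 60.6, 79.7, 84.2 and 70.5 CPM in wildtype good and 81.0, 67.3 and 63.3 CPM in wildtype bad responders. In MZrlig1 it had 25.4 CPM in good responder library 2, 68.5 CPM in good responder library 3 and 39.3, 45.1, 36.7 and 33.4 CPM in bad responders. Library 3 was thus the MZrlig1 head library within the wildtype range, and the others lay below it. The averaged log2 fold change was -0.70 ± 0.22 (SE, adjusted p = 0.148, edgeR) with library 3 and -1.19 (edgeR) without it. Library 3 was set apart by its gammaM2d share, and crygm2d6 is a gammaM2d gene. Leaving library 3 out also leaves a lone MZrlig1 good responder library. The value and the call without library 3 are therefore descriptions only. As for every crygm2d copy, how reads were shared is uncertain.

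Among bad responders the smallest p belonged to crygmxl1, a gammaMX gene. It had 4.29, 3.84 and 3.28 CPM in wildtype and 9.49, 13.4, 7.47 and 7.35 CPM in MZrlig1 bad responders. In good responders the genotypes overlapped, with 4.63, 6.29, 3.35 and 4.56 CPM in wildtype and 4.77 and 6.11 CPM in MZrlig1. The log2 fold change was 1.30 ± 0.32 (SE, adjusted p = 0.0891, edgeR; DESeq2 adjusted p = 0.00503) in bad and 0.31 ± 0.35 (SE, adjusted p = 0.761, edgeR) in good responders. The difference between these effects, the interaction term, was 0.99 ± 0.48 (SE, adjusted p = 0.856, edgeR).

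The beta gene crybb1l3 was low in MZrlig1 good responders, at 1.97 and 3.68 CPM, against 4.29, 9.26, 5.34 and 6.99 CPM in wildtype good responders (log2 fold change -1.08 ± 0.42 SE, adjusted p = 0.382, edgeR). The beta gene crybb1l1, low in MZrlig1 whole larvae, overlapped in heads: wildtype heads ran from 1347 to 2115 CPM and MZrlig1 heads from 1350 to 2163 CPM. Its log2 fold change averaged over behaviour was -0.19 ± 0.15 (SE, adjusted p = 0.791, edgeR). CRYAA had 127.8, 147.1, 157.0 and 150.6 CPM in wildtype good, 167.3, 153.6 and 180.8 in wildtype bad, 135.9 and 131.5 in MZrlig1 good and 157.2, 158.7, 150.4 and 124.2 in MZrlig1 bad responders. Its averaged log2 fold change was -0.10 ± 0.11 (SE, adjusted p = 0.878, edgeR).

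Of 29 other lens genes tested by edgeR, 0 were called between genotypes in heads. Before adjustment 3 were under 0.05 among good responders, 1 among bad responders and 3 over both. Of all genes 10.2%, 6.88% and 11.5% were under 0.05 in these comparisons, and 0.708%, 0.983% and 2.73% were called. Of 22 photoreceptor genes 1 was called in the averaged comparison, to be read against the same 2.73% of all genes. It was the cone opsin gene opn1mw2 (log2 fold change 1.26 ± 0.31 SE, adjusted p = 0.0441, edgeR). The summed liver and gut genes had a mean of 14778 ± 46.9 CPM (SD, n = 2) in MZrlig1 good and 9913 ± 5019 CPM (SD, n = 4) in wildtype good responder heads. The part of this difference in the crystallin values was not tested.

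Between good and bad responders, 0 of 48 crystallins were called in wildtype heads, with 0 at an unadjusted p under 0.05 and 0 by DESeq2, against 0.00% of all genes called and 0.778% with such a p by edgeR. In MZrlig1 heads 0 of 48 were called, with 3 at an unadjusted p under 0.05 and 0 by DESeq2, against 0.00466% of all genes called and 5.29% with such a p. The interaction of genotype and behaviour called 0 of 48, with 1 at an unadjusted p under 0.05 and 0 by DESeq2, against 0.00% of all genes called and 3.81% with such a p.

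In wildtype, the smallest p values were those of crygm7, with a log2 fold change (bad against good) of -0.58 ± 0.37 (SE, adjusted p = 1, edgeR), and CRYAA, with 0.20 ± 0.15 (SE, adjusted p = 1, edgeR). In MZrlig1 they were those of crygm2e and crygm2d1. The gene crygm2e had 3.70 and 5.00 CPM in MZrlig1 good and 2.76, 2.38, 2.75 and 1.96 CPM in MZrlig1 bad responders (log2 fold change -0.95 ± 0.32 SE, adjusted p = 0.821, edgeR). For crygm2d1 the good responders had 655.1 and 1163 CPM and the bad responders 612.0, 621.5, 596.6 and 577.5 CPM (log2 fold change -0.74 ± 0.26 SE, adjusted p = 0.821, edgeR).

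In MZrlig1, 20 of 21 gammaM2d genes had a log2 fold change below 0 for bad against good responders, with a median of -0.37, whereas 46.7% of all genes were below 0, with a median of 0.03. The 21 genes share a tissue and the same pools, so they too are not independent of each other. The gammaM2d sum was 11675 and 19030 CPM in the MZrlig1 good and 11988, 16054, 12960 and 10843 CPM in the MZrlig1 bad responder libraries. Library 3 of the good responders was thus the highest of all 13 heads and library 2 lay within the bad responders. For 13 of the 21 crygm2d genes library 3 had the highest CPM of all heads, and its gammaM2d to beta ratio was 1.13, against 0.724 to 0.825 in the other 12. Muscle genes moved the same way: all 11 were below 0 in MZrlig1 bad against good responders, with a median of -0.66. By edgeR 0 of them were called and 5 were under 0.05 before adjustment, against 5.29% of all genes under 0.05. The summed level of the muscle genes was 15311 and 17334 CPM in the MZrlig1 good and 8340 to 13526 CPM in the MZrlig1 bad responder libraries, without overlap, and was high in both good responder libraries. The part of this in the gammaM2d values was not tested. In wildtype 13 of 21 crygm2d genes were below 0, with a median of -0.02, against 56.5% of all genes. The median of the interaction term over the 21 genes was -0.36, and the single gene with the smallest p was crygm2d1 (-0.76 ± 0.35 SE, adjusted p = 0.856, edgeR).

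**Figure D5:**
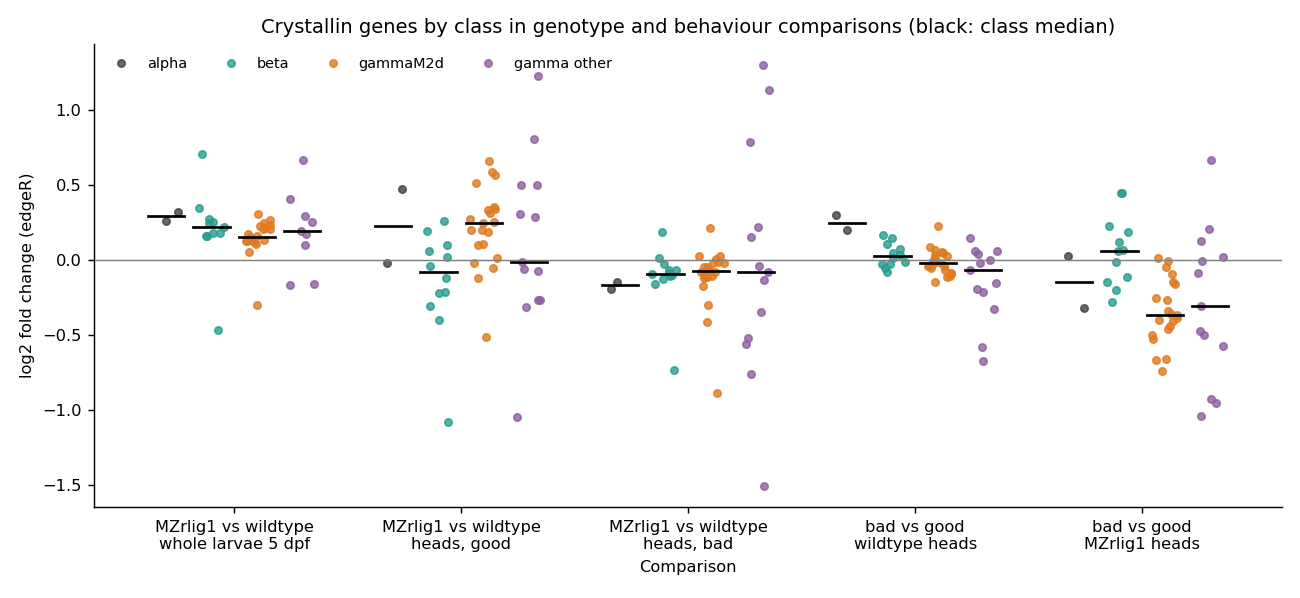
Log2 fold changes from edgeR of the tested crystallin genes, by class, in 3 comparisons of genotype and 2 of behaviour, with class medians in black. Most genes lie within 0.5 of 0, and the crygm2d genes sit below 0 in bad against good MZrlig1 heads, where 1 of the 2 good responder libraries was high.

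The genes whose level over the 13 heads was most like that of CRYAA (Pearson's r of log2 CPM, a description, since all values share the libraries' depth and dissection) were ACER1 and si:ch211-276i12.11, both with r = 0.89, then AAGAB and LRPAP1, both with 0.88, and TDG with 0.87. The most alike crystallins were crygmx and cryba1l1, both with 0.83. None of the other lens genes listed was among the first 5.

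Before 1 dpf, crystallin counts were few, from 6.98 to 63.6 CPM, in all but 3 of the 24 libraries. Those 3 were wildtype shield c with 442 CPM, MZrlig1 bud b with 339.7 CPM and wildtype bud a with 125.6 CPM. Of these sums gammaM2d gave 225, 173.4 and 61.6 CPM, whereas at 1 dpf the beta genes gave most. Over the 57 genes the log values of the 3 libraries correlated with the mean 5 dpf profile of their genotype with r = 0.96, 0.95 and 0.95, and those of the 6 libraries at 1 dpf with r = 0.48 to 0.78.

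Their crystallin level was 2.52%, 1.84% and 0.716% of that at 5 dpf, and their summed level of muscle genes was 1.72%, 0.738% and 0.561% of that at 5 dpf. In the other 9 shield and bud libraries the crystallin level was at most 0.277% of 5 dpf and the muscle level at most 0.431%, both in MZrlig1 shield a, whose r was 0.90. The origin of these counts was not tested. In 4-cell embryos too, 5 of 8 libraries held 7.91 to 19.8 CPM of gammaM2d, within the range of wildtype at 1 dpf, and the other 3 at most 0.718 CPM.

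A pair of crystallins had an early level of their own. CRYGN ENSDARG00000102129, the second gammaN gene, had 25.0, 16.4, 21.5 and 13.7 CPM in wildtype 4-cell embryos and 11.7, 8.59, 5.30 and 7.46 CPM in MZrlig1 4-cell embryos. At shield it had 4.21, 5.01 and 5.00 CPM in wildtype and 0.485, 0.630 and 1.35 CPM in MZrlig1, and at bud at most 0.289 CPM. The genotypes did not overlap at the 4-cell, sphere or shield stage, a difference that was noticed after the values were seen and was not tested. By 5 dpf the same gene was at 15.5, 15.3 and 17.8 CPM in wildtype and 16.9, 22.2 and 17.2 CPM in MZrlig1. CRYGS ENSDARG00000041171, a gammaS gene, had 1.89 to 6.74 CPM in wildtype 4-cell embryos and 0.136 to 3.90 CPM in MZrlig1 ones, and at most 0.378 CPM in any 1 dpf, 5 dpf or head library.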

How the data were processed

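The authors deposited gene counts and FPKM values for 36 whole-embryo and 13 head libraries, each set in its own table; per the submitters' processing notes STAR 2.7.10b, Salmon 0.14.1, DESeq2 1.42.1 and build GRCz11 were used, while annotation release, strand setting and treatment of multiply mapped reads are not given in the sources used here. The deposited counts were tested with edgeR 4.0.16 (quasi-likelihood, robust, TMM, filterByExpr) in R 4.3.3, with Benjamini-Hochberg adjustment over all genes tested and a threshold of 0.05; the 4 head groups shared a fit, and heads against whole larvae combined both tables. CPM are counts over the library total; the authors' FPKM served to compare genes per length. Likeness used log2 CPM with a prior count of 2. Alternatives were DESeq2 1.42.0, its size factors, no filter, a replicate block, only the groups compared, and leaving out each library. The fit was tested on simulated data. Nothing in the labels says that replicates came from separate crosses, so p-values measure the spread between pools.

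Crystallins and gene lists (other lens, photoreceptor, other retina, muscle, liver and gut, brain, enzyme crystallins, small heat-shock) were chosen with earlier results of these data known. Named are all alpha genes, the 3 genes of highest FPKM per class, called genes (or the 2 with the smallest p), in stage and tissue comparisons the largest changes, up to 3 called other lens genes, and the 5 genes most like CRYAA; others were named after their values were seen. Counting intervals and floors cover counting error only. Sequences were not used here.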

Additional observations from a re-analysis of the deposited data

Results flagged for a closer look

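Within head groups of 4 libraries, 60 values were tested for 1 library far from the others (by Dixon's test at the 95% limit), of which 4 exceeded it. The values were those of named crystallins, class sums and the gammaM2d to beta ratio. For independent values chance gives about 1 in 20, but these share libraries and are not independent. In MZrlig1 bad responders library 2 was far highest for crybb1l3, with 5.908 CPM, and for crygm2d18, with 966.2 CPM. In wildtype good responders library 1 was far lowest for crybb1l1, with 1346.9 CPM. In the same group library 2 was far highest for crygm5, with 13.53 CPM, and without it crygm5 was called between genotypes among good responders, with a log2 fold change of 1.72 (adjusted p = 0.0281, edgeR).

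In stages outside the comparisons, 3 libraries had a crystallin sum over 5 times the median of their stage, a limit set after the values were seen: wildtype shield c with 442 CPM, MZrlig1 bud b with 339.7 CPM and wildtype bud a with 125.6 CPM. The stage medians were 14.9 CPM at shield and 11.4 CPM at bud.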

How the results depend on the processing

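Leaving out 1 library at a time moved the number of crystallins called between genotypes from 0 to a range of 0 to 1 at 1 dpf (1 without MZrlig1 library a), 0 to 1 at 5 dpf (1 without MZrlig1 library b) and 0 to 1 in good responders (1 without wildtype library 2), and from 2 to a range of 0 to 3 with behaviour averaged. It moved the count between 1 and 5 dpf in MZrlig1 from 30 to a range of 0 to 43, and that between heads and whole larvae to 25 to 39 in wildtype and 4 to 24 in MZrlig1. DESeq2 called 1 at 5 dpf (crybb1l1), 1 in bad responders (crygmxl1), 4 with behaviour averaged (crygm5, crygm7, crybb1l3 and crygmxl1) and 28 between heads and whole larvae in MZrlig1. A fit of the bad responders alone called 1, crygm2d6, with a log2 fold change of -0.89 (adjusted p = 0.0306, edgeR). Leaving out 1 library at a time, the genotype log2 fold change at 1 dpf ran from -0.011 to 4.59 for CRYBB3 and from -0.25 to 3.67 for CRYBA4, reversed without MZrlig1 library a. Of all values of single genes under an alternative, 364 kept direction and side of the threshold, 63 fell short of it, 4 newly passed it and 2 reversed; the cause was not tested.

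With a replicate block, 0 crystallins were called with behaviour averaged, 0 between 1 and 5 dpf in MZrlig1, and 43 between 1 and 5 dpf in wildtype, where CRYBB3 was lost. The libraries share only a letter or number. Correlations of same-lettered deviations between genotypes were -0.09, -0.24 and 0.09 at 1 dpf and -0.21, -0.50 and -0.17 at 5 dpf. For same-numbered head libraries of different groups they ran from -0.51 (wildtype good 2 and wildtype bad 2) to 0.52 (wildtype good 2 and MZrlig1 bad 2). With 2 MZrlig1 good responder libraries, leaving out 1 leaves a lone library that is assumed to vary like the other groups. Low members such as crygm7, with 4 to 36 counts a head library, are limited by depth.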
